A study of Rattus norvegicus with 12 samples.

Results

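Expression of 10 rat genes of serine synthesis and folate-dependent one-carbon metabolism was followed in the osteoblast-like rat line UMR-106 under low and high NaCl. The genes were taken by name: Phgdh, Psat1 and Psph, Slc1a4, Shmt1 and Shmt2, and Mthfd1, Mthfd2, Mthfd1l and Aldh1l2. All 10 were among the 19414 genes listed for control cells, and 9 were among the 18834 genes listed for NFAT5KO cells, where Aldh1l2 had no entry. The 12 libraries formed 4 groups of 3: control cells in -NaCl, control cells in +NaCl, NFAT5KO cells in -NaCl and NFAT5KO cells in +NaCl. In -NaCl the salt was lowered by 20 mM and in +NaCl it was raised by 20 mM for 24 h, so that both media of a genotype differed by 40 mM, and the study used this to ask which genes respond to extracellular sodium through the tonicity-regulated transcription factor NFAT5. No group was kept at unchanged salt, so lower expression in +NaCl cannot be told apart from higher expression in -NaCl. Below, words such as fell, rose and decline describe +NaCl relative to -NaCl only. The experimental medium of every group contained the vitamin D hormone calcitriol. The -NaCl medium was prepared from a custom NaCl-free formulation to which salt was added back, and any effect of that preparation cannot be told apart from that of the salt. NFAT5KO cells were made by CRISPR-Cas9 and derive from 1 single cell, so the loss of NFAT5 cannot be told apart from other features of that clone.

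Cells make serine from the glycolytic intermediate 3-phosphoglycerate in a chain of reactions catalysed by PHGDH, PSAT1 and PSPH, and take it up through transporters such as SLC1A4. The SHMT enzymes move a carbon unit from serine to tetrahydrofolate and release glycine, SHMT1 in the cytosol and SHMT2 in mitochondria. In mitochondria the folate-bound unit is oxidised by MTHFD2 and then either released as formate by MTHFD1L or oxidised to carbon dioxide by ALDH1L2. In the cytosol MTHFD1 takes up formate and interconverts the folate-bound forms, and the unit serves purine, thymidylate and methionine synthesis. In mouse and human cells, transcription of several of these genes is known to depend on ATF4, the transcription factor of the amino acid response. In bone, serine and glycine are also building blocks of collagen.

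Libraries held between 14267946 and 22798804 reads assigned to genes. Nfat5 served as the check of the genotype. Its normalized read count was 2925, 2689 and 2799 in control -NaCl, 4292, 4217 and 4575 in control +NaCl, 1036, 792 and 843 in NFAT5KO -NaCl, and 1403, 1590 and 1626 in NFAT5KO +NaCl. Every NFAT5KO library was below every control library, and at equal depth the mean was 0.296 times that of control cells in -NaCl and 0.332 times in +NaCl, so reads of the gene remained in the clone. The paper reported a complete knockout by immunoblot, and by qRT-PCR it detected no Nfat5 mRNA in NFAT5KO cells. Separate primers were listed for that qRT-PCR, and the forward primer shares bases with a guide sequence. It is therefore not the same measure as reads counted over the whole gene. Such reads also do not show whether protein was made. All 10 osteoblast markers examined (Runx2, Sp7, Alpl, Ibsp, Bglap, Spp1, Col1a1, Col1a2, Dmp1 and Pth1r) had entries in both genotypes, and their summed normalized count ranged from 66015 to 70257 in control -NaCl and from 110700 to 117610 in control +NaCl. In NFAT5KO cells the sum ranged from 72610 to 83349 in -NaCl and from 93064 to 94130 in +NaCl. The sums of the leukocyte, endothelial, muscle and adipocyte markers were at most 30.02 in any library. The adipocyte sum was 12.1 to 30.02 in control (4 genes listed) and 2.38 to 7.84 in NFAT5KO cells (3 genes listed). That of the chondrocyte markers was 140 to 198.2 in control and 23.1 to 43.5 in NFAT5KO cells. The osteoblast markers moved with the medium in the direction opposite to the serine and one-carbon genes. By limma 9 of 10 were higher in control +NaCl and 4 of 10 in NFAT5KO +NaCl, beside 13.3% and 7.29% of all genes. The response of 3 of 10 differed between the genotypes, more negative in NFAT5KO cells, beside 1.80% of all genes that differed. The part of these markers in the results was not tested. In such bulk libraries, a smaller number of cells with a transcript and less transcript per cell cannot be told apart.

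The promoter sequences are shown for Slc1a4, Phgdh and Psat1. Of the 8 genes with an entry, only Slc1a4 had a match to the core of the C/EBP-ATF response element, Phgdh opens the serine pathway, and Psat1 had one of the largest changes but no match. Each window is the stretch from 250 bases before to 50 bases after the transcription start listed by RefSeq on GRCr8, read 5′ to 3′ on the strand of the gene. Capitals mark matches to TGATGNAA, the core of the C/EBP-ATF response element, or to TGGAAA, a core of the sites bound by NFAT proteins, on either strand.
Slc1a4 (minus strand of chr14:98761513-98761812): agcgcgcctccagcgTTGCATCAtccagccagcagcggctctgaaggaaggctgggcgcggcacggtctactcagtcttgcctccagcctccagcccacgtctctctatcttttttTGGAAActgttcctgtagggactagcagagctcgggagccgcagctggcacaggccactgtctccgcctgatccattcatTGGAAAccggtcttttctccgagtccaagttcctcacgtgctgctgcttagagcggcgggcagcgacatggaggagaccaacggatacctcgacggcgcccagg
Phgdh (minus strand of chr2:188624740-188625039): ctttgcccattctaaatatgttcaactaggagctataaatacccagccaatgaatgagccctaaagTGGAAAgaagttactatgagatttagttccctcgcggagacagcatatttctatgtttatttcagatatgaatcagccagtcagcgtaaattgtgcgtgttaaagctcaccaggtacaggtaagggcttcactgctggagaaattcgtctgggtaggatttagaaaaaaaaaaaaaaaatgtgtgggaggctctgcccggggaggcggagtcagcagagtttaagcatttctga
Psat1 (minus strand of chr1:222645359-222645658): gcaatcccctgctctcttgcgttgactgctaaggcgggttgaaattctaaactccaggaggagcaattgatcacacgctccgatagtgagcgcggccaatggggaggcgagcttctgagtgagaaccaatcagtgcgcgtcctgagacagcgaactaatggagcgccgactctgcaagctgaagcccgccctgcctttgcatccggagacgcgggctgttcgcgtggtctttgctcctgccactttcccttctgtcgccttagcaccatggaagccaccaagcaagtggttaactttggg
The Slc1a4 window held TTGCATCA, a TGATGNAA match on the opposite strand, beginning at position -235 relative to the listed start, and TGGAAA at positions -134 and -54. The Phgdh window held TGGAAA at position -184. No matches overlapped. TGATGNAA was found in 1 of the 8 windows, in 10 of 26 windows of an ATF4 pathway list and in 3.98% of all 33469 promoters. TGGAAA was found in 2 of the 8 windows and in 22.7% of all promoters, and TGACGTCA, the cyclic AMP response element, in 0 of the 8 windows and in 1.83% of all promoters. A match of letters is a description and not evidence of a bound site, and the absence of one says only that these letters are not in this window.

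Most of the genes were lower in +NaCl than in -NaCl, in both genotypes. In control cells, 9 of the 10 genes fell and 0 rose (limma, Benjamini-Hochberg adjusted p below 0.05). Of the 17108 genes tested there, 26.0% changed and 12.7% fell. In NFAT5KO cells 6 of the 9 listed genes fell and 0 rose, and of the 16657 genes tested, 14.7% changed and 7.37% fell. The median log2 fold change of +NaCl over -NaCl was -0.90 over the 10 genes in control cells and -0.44 over the 9 genes in NFAT5KO cells, while that of all genes tested was -0.0018 and 0.00092. The steepest declines in control cells were those of the serine synthesis genes Psph and Psat1. The count in control cells was between 8 and 9 when any 1 library was left out. In NFAT5KO cells it was 3 without -NaCl replicate 2, 3 without -NaCl replicate 3, 3 without +NaCl replicate 1, 4 without either other +NaCl library and 8 without -NaCl replicate 1. When limma was run without its mean-variance trend, 6 of 10 passed in control cells and 0 of 9 in NFAT5KO cells.

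**Figure D1:**
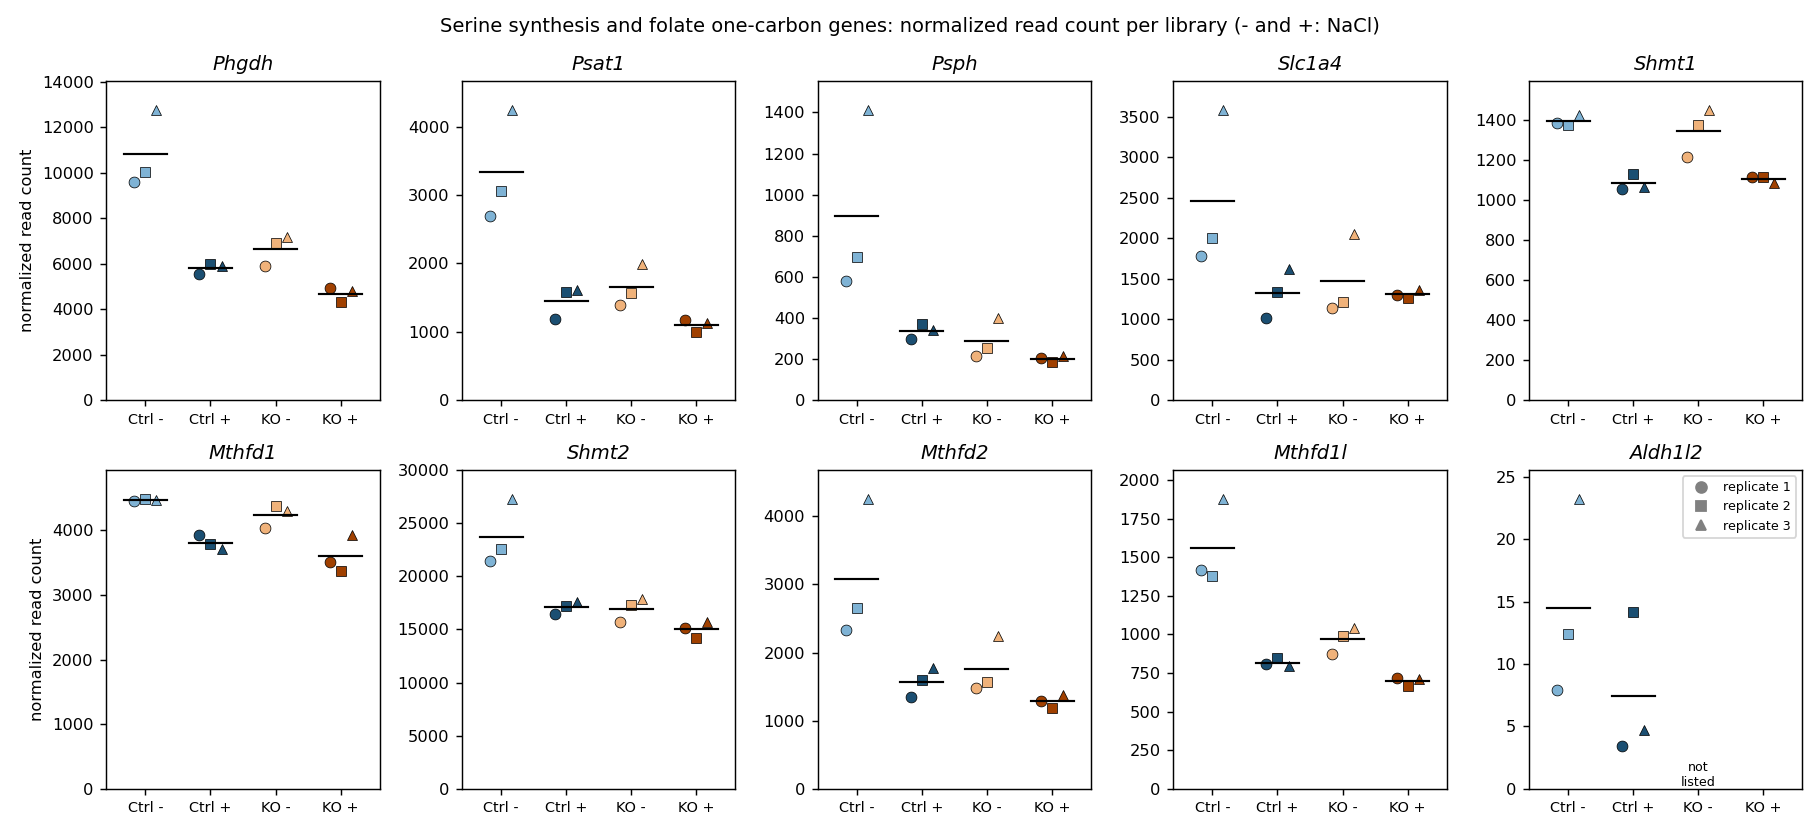
Normalized read count (vertical axis, linear from 0) of the 10 genes in each of the 12 libraries, with 1 panel per gene. Circles, squares and triangles are replicates 1, 2 and 3, horizontal lines are group means, and the columns are control -NaCl, control +NaCl, NFAT5KO -NaCl and NFAT5KO +NaCl. Each table was normalized separately, so heights are compared within a genotype. In control cells the 3 +NaCl libraries lie below the 3 -NaCl libraries in every panel except that of Aldh1l2, and the triangle is the highest -NaCl point in most panels. The share of all genes with such a separation was not determined.

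The 3 enzymes of serine synthesis were examined first. Phgdh (ENSRNOG00000019328), on chromosome 2 from 200484246 to 200513564 in the coordinates of the files, encodes the dehydrogenase that commits 3-phosphoglycerate to serine. Its normalized read count was 9595, 10038 and 12746 in control -NaCl and 5535, 5971 and 5884 in control +NaCl. The +NaCl libraries were all well below the -NaCl libraries, and the mean went from 10793 ± 1706 to 5797 ± 231 (SD, n = 3 each). In NFAT5KO cells it was 5914, 6912 and 7150 in -NaCl and 4918, 4324 and 4796 in +NaCl. Again the groups did not overlap. On the log2 scale the change was -0.89 (SE 0.086, adjusted p = 3.35e-05 by limma) in control cells and -0.51 (SE 0.075, adjusted p = 0.00204) in NFAT5KO cells.

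Psat1 (ENSRNOG00000013971, chromosome 1, 233124092 to 233145941) encodes the aminotransferase of the next step. Its count was 2701, 3062 and 4245 in control -NaCl and 1180, 1583 and 1608 in control +NaCl. Each +NaCl library held fewer reads than any -NaCl library, and the log2 fold change was -1.18 (SE 0.15, adjusted p = 2.35e-04 by limma). NFAT5KO cells had counts of 1390, 1574 and 1988 in -NaCl and 1167, 999 and 1126 in +NaCl. The groups were separate here too, with a log2 fold change of -0.58 (SE 0.11, adjusted p = 0.00643).

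Psph (ENSRNOG00000000925, chromosome 12, 30514050 to 30526561) encodes the phosphatase that releases free serine. Its count was 581, 695 and 1412 in control -NaCl and 299, 369 and 339 in control +NaCl. The groups did not overlap, although -NaCl replicate 3 was far above the other -NaCl libraries. The log2 fold change was -1.31 (SE 0.25, adjusted p = 0.00298 by limma), and it was -0.92 (adjusted p = 1.56e-04) without that library. NFAT5KO cells had counts of 215, 254 and 400 in -NaCl and 204, 185 and 214 in +NaCl. Here -NaCl replicate 1 was nearly level with +NaCl replicate 3, and the log2 fold change of -0.48 (SE 0.19, adjusted p = 0.112) did not pass. It was -0.665 and passed without -NaCl replicate 1 (adjusted p = 0.0276), and was -0.22 without -NaCl replicate 3 (adjusted p = 0.363). DESeq2 on recovered reads called Psph in NFAT5KO cells (adjusted p = 0.0385).

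Slc1a4 (ENSRNOG00000005248, chromosome 14, 104581190 to 104612597) encodes a sodium-dependent carrier of serine, alanine and other small neutral amino acids. Its count was 1780, 1998 and 3582 in control -NaCl and 1016, 1340 and 1618 in control +NaCl. The groups did not overlap, but the lowest -NaCl and the highest +NaCl library were close. The log2 fold change was -0.84 (SE 0.23, adjusted p = 0.0186 by limma) and -0.535 (adjusted p = 0.0218) without -NaCl replicate 3. The call was lost without +NaCl replicate 1 (adjusted p = 0.0759), without +NaCl replicate 2 (adjusted p = 0.0518) and with DESeq2 (adjusted p = 0.0659). In NFAT5KO cells the count was 1137, 1214 and 2046 in -NaCl and 1302, 1264 and 1363 in +NaCl. The groups overlapped, with -NaCl replicate 3 alone above all +NaCl libraries, and the log2 fold change was -0.11 (SE 0.17, adjusted p = 0.714). Without that library it was 0.16 (adjusted p = 0.205), so its sign rested on 1 library.

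The pair of serine hydroxymethyltransferases was examined next. Shmt1 (ENSRNOG00000005275, chromosome 10, 47031050 to 47059216), the cytosolic enzyme, had a count of 1384, 1372 and 1423 in control -NaCl and 1053, 1126 and 1065 in control +NaCl. Replicates were tight and the groups did not overlap, giving a log2 fold change of -0.37 (SE 0.049, adjusted p = 3.15e-04 by limma). In NFAT5KO cells its count was 1212, 1374 and 1447 in -NaCl and 1111, 1114 and 1085 in +NaCl. The groups were again separate, and the log2 fold change was -0.28 (SE 0.069, adjusted p = 0.02). This call was lost without -NaCl replicate 2, -NaCl replicate 3, +NaCl replicate 1 or +NaCl replicate 3, with adjusted p of 0.0853, 0.0958, 0.0508 and 0.0684.

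Shmt2 (ENSRNOG00000008106, chromosome 7, 70824715 to 70829815), the mitochondrial enzyme, had a count of 21398, 22521 and 27288 in control -NaCl and 16441, 17205 and 17549 in control +NaCl. No +NaCl library reached the lowest -NaCl library, and the log2 fold change was -0.47 (SE 0.074, adjusted p = 9.08e-04 by limma). NFAT5KO cells had counts of 15697, 17264 and 17842 in -NaCl and 15165, 14206 and 15661 in +NaCl. The groups nearly touched, at -NaCl replicate 1 and +NaCl replicate 3, and the log2 fold change of -0.17 (SE 0.063, adjusted p = 0.0898) did not pass. It passed with DESeq2 (-0.17, adjusted p = 0.0243) and without -NaCl replicate 1 (-0.23, adjusted p = 0.0373).

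The enzymes that interconvert or oxidise folate-bound units followed. Mthfd1 (ENSRNOG00000005602, chromosome 6, 99282850 to 99350340) encodes the trifunctional cytosolic enzyme, and its count was 4457, 4487 and 4473 in control -NaCl and 3929, 3787 and 3703 in control +NaCl. The -NaCl libraries were almost identical and all above the +NaCl libraries, with a log2 fold change of -0.23 (SE 0.038, adjusted p = 0.00108 by limma). In NFAT5KO cells the count was 4041, 4371 and 4298 in -NaCl and 3509, 3367 and 3934 in +NaCl. The groups did not overlap and the log2 fold change was -0.24 (SE 0.064, adjusted p = 0.0291). This call was lost without -NaCl replicate 2, -NaCl replicate 3, +NaCl replicate 1 or +NaCl replicate 2, with adjusted p of 0.116, 0.104, 0.0906 and 0.0722.

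Mthfd2 (ENSRNOG00000010833, chromosome 4, 115004448 to 115015965) encodes a mitochondrial methylenetetrahydrofolate dehydrogenase and cyclohydrolase. Its count was 2335, 2647 and 4258 in control -NaCl and 1341, 1592 and 1780 in control +NaCl. The groups were separate, with -NaCl replicate 3 far above the rest, and the log2 fold change was -0.93 (SE 0.18, adjusted p = 0.00312 by limma) and -0.67 (adjusted p = 7.15e-04) without that library. NFAT5KO cells had counts of 1479, 1567 and 2240 in -NaCl and 1293, 1182 and 1371 in +NaCl. The groups did not overlap, and the log2 fold change was -0.44 (SE 0.13, adjusted p = 0.0392). Of the 6 calls in NFAT5KO cells this one was lost under the most alternatives. It did not pass with DESeq2 (adjusted p = 0.103), in 1 model of all 12 libraries (adjusted p = 0.111) or without any library but -NaCl replicate 1, the smallest value being -0.25 (adjusted p = 0.0817) without -NaCl replicate 3. The adjusted p was 0.0641 without -NaCl replicate 2 and 0.0792, 0.12 and 0.0606 without +NaCl replicates 1, 2 and 3.

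Mthfd1l (ENSRNOG00000019582, chromosome 1, 40529045 to 40719391) encodes the mitochondrial synthetase that releases formate to the cytosol. Its count was 1414, 1381 and 1879 in control -NaCl and 806, 847 and 799 in control +NaCl. All +NaCl libraries were far below all -NaCl libraries, and the log2 fold change was -0.92 (SE 0.099, adjusted p = 7.02e-05 by limma). In NFAT5KO cells it was 872, 991 and 1040 in -NaCl and 719, 666 and 708 in +NaCl. The groups did not overlap, with a log2 fold change of -0.47 (SE 0.076, adjusted p = 0.00314). A U1 entry overlaps the span of Mthfd1l on the same strand. Whether it overlaps an exon was not determined, and only there could reads of the 2 not be told apart.

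Aldh1l2 (ENSRNOG00000008586, chromosome 7, 26375866 to 26425108) encodes the mitochondrial 10-formyltetrahydrofolate dehydrogenase and was near the limit of detection. Its normalized read count was 7.92, 12.4 and 23.3 in control -NaCl and 3.40, 14.2 and 4.70 in control +NaCl, from 46 and 21 reads in all. The groups overlapped, and the log2 fold change of -0.98 (SE 0.56, adjusted p = 0.238 by limma) did not pass. At this depth its interval ran from -2.21 to 0.25.

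**Figure D2:**
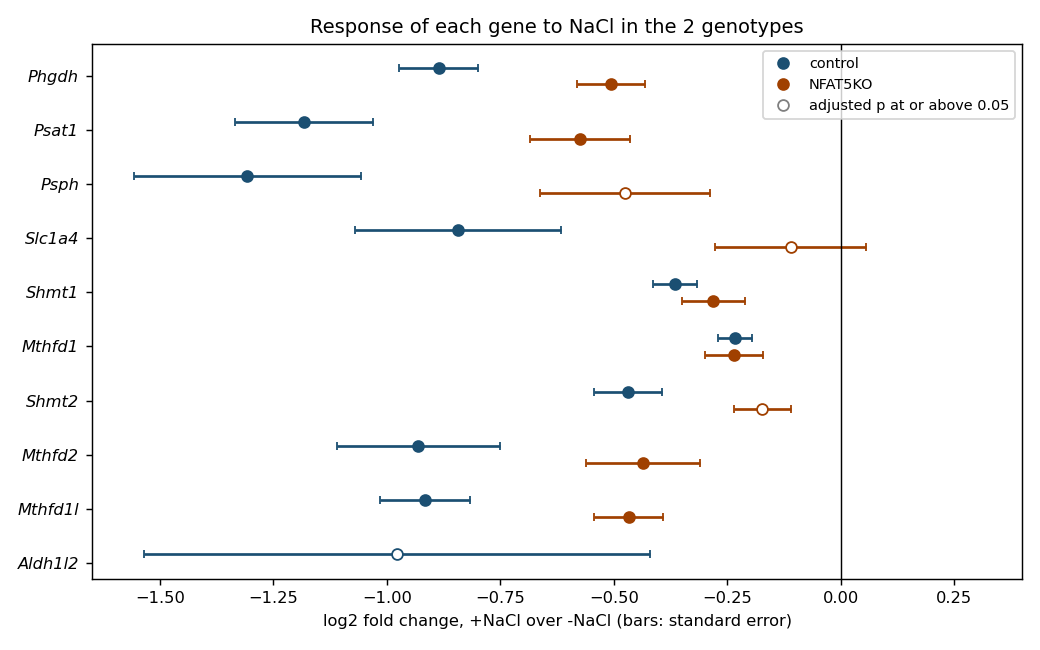
Log2 fold change of +NaCl over -NaCl (horizontal axis) for each of the 10 genes in control cells (blue) and NFAT5KO cells (orange), 3 libraries per group. Bars are standard errors of the limma fit, and filled symbols have an adjusted p below 0.05. In control cells the values run from -1.31 for Psph to -0.23 for Mthfd1, and in NFAT5KO cells from -0.58 for Psat1 to -0.11 for Slc1a4.

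Whether the response differed between the genotypes was tested directly, subtracting the log2 fold change of control cells from that of NFAT5KO cells in 1 limma model of the 12 libraries. The values were 0.38 (SE 0.13) for Phgdh, 0.61 (SE 0.22) for Psat1, 0.83 (SE 0.36) for Psph and 0.73 (SE 0.33) for Slc1a4. They were 0.30 (SE 0.11) for Shmt2, 0.49 (SE 0.26) for Mthfd2 and 0.45 (SE 0.14) for Mthfd1l, the mitochondrial enzymes. For the cytosolic enzymes they were 0.084 (SE 0.085) for Shmt1 and -0.0029 (SE 0.076) for Mthfd1, and that of Mthfd1 turned positive with equal library totals, edgeR or DESeq2. Thus 8 of 9 values were positive, meaning a smaller decline in NFAT5KO cells. None passed after adjustment over all genes (0 of 9 by limma, and 1.80% of the 16849 genes tested). At an unadjusted p below 0.05 the count was 6 of 9, beside 13.0% of all genes. The smallest adjusted p was 0.126, for Mthfd1l. edgeR on recovered reads called 0 of 9 and DESeq2 called 1, Mthfd1l, with a difference of 0.47 (adjusted p = 0.0394). The 95% interval of the difference was 0.16 to 0.74 for Mthfd1l and -0.16 to 0.16 for Mthfd1. A different response of the serine and one-carbon genes in the clone was therefore not established at this threshold, and these intervals do not show equal responses. Without Control -NaCl replicate 3 the difference of Psph was 0.45, that of Mthfd2 0.24 that of Shmt2 0.19 and that of Slc1a4 0.425, and 0 of 9 passed. The difference of Shmt1 was 0.0111 without NFAT5KO -NaCl replicate 1 and 0.139 without NFAT5KO -NaCl replicate 3.

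Per kilobase of listed gene length, Shmt2 and Phgdh had the highest normalized read counts in each group. In control -NaCl the mean per kilobase was 11440 for Shmt2, 5986 for Phgdh, 1494 for Mthfd2, 1342 for Mthfd1, 1181 for Psat1, 728 for Psph, 681 for Shmt1, 634 for Slc1a4, 417 for Mthfd1l and 5.25 for Aldh1l2. The ranges over libraries of Shmt2, Phgdh and Mthfd2 were separate from each other, whereas each neighbour from Mthfd2 down to Mthfd1l overlapped the next. In control +NaCl, Mthfd1 with 1142 was above Mthfd2 with 762, and their ranges no longer overlapped. In that group Psat1 (516) overlapped Shmt1 (529) and Slc1a4 (342), and Psph (273) overlapped Slc1a4. In NFAT5KO cells the first 4 places were held by Shmt2, Phgdh, Mthfd1 and Mthfd2, with separate ranges in both media. Psph was the lowest of the 9 there, with 235 in -NaCl and 164 in +NaCl, and its -NaCl range overlapped that of Mthfd1l (259).

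Levels were set side by side across the genotypes as recovered reads scaled to equal depth (CPM), without a test, because each genotype had been normalized separately. In -NaCl all 9 genes had a lower mean in NFAT5KO than in control cells. The mean went from 52.5 to 15.9 CPM for Psph, a ratio of 0.303, and from 196 to 90.7 for Psat1, a ratio of 0.463. For Phgdh it went from 634 to 366, a ratio of 0.577. The ratio was 0.536 for Mthfd2, 0.560 for Slc1a4, 0.581 for Mthfd1l and 0.667 for Shmt2, and it was nearest to 1 for the cytosolic enzymes, at 0.884 for Mthfd1 and 0.901 for Shmt1. In CPM the libraries of both genotypes overlapped only for Slc1a4. Those of Shmt1 lay close, with at most 79.83 in NFAT5KO and at least 80.89 in control cells. The share of all genes without such overlap was not determined in either medium, so these separations are a description only. In +NaCl the ratios were between 0.562 for Psph and 0.959 for Shmt1, and libraries overlapped for Shmt1 and Slc1a4. The 9 genes thus lay closer together between the genotypes in +NaCl than in -NaCl, with Mthfd1 nearly the same at 0.884 and 0.889. The chondrocyte and adipocyte marker sums were also lower in every NFAT5KO than in every control library, and their part in these levels was not tested.

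Libraries of 1 group varied together over most of these genes, in -NaCl and, by less, in +NaCl. In control -NaCl, replicate 3 was the highest of the 3 libraries for 8 of the 9 genes listed in both genotypes, with a mean deviation of 0.34 from the group mean on the log2 scale. In NFAT5KO -NaCl, replicate 3 was also the highest for 8 of 9, with a mean deviation of 0.24, and replicate 1 was the lowest for 9 of 9, with -0.20. The exceptions were Mthfd1 in both genotypes, whose highest -NaCl library was replicate 2. Over 27 genes of an ATF4 pathway list, replicate 3 was the highest -NaCl library for 27 of 27 in both genotypes, with mean deviations of 0.53 and 0.47. Over 15 DNA replication genes no library deviated by more than 0.039 in the mean. Of all genes with enough reads, 38.9% were highest in control -NaCl replicate 3 and 28.8% in NFAT5KO -NaCl replicate 3. In +NaCl the serine and one-carbon genes deviated less, by -0.13 for control replicate 1, the lowest for 7 of 9, and by at most 0.084 in size elsewhere. NFAT5KO +NaCl replicate 2, at -0.084, was the lowest for 8 of 9. The ATF4 pathway genes deviated by -0.26 in control +NaCl replicate 1, the lowest for 25 of 27, and by 0.17 in control +NaCl replicate 3, the highest for 21 of 27. Because these libraries were set apart after their values had been seen, results without them are a description: without both -NaCl libraries numbered 3, the difference between the genotypes was 0.705 for Psph (adjusted p = 0.0752), 0.69 for Slc1a4 (adjusted p = 0.107), 0.56 for Psat1 (adjusted p = 0.138) and 0.36 for Mthfd1l (adjusted p = 0.107), by limma.

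**Figure D3:**
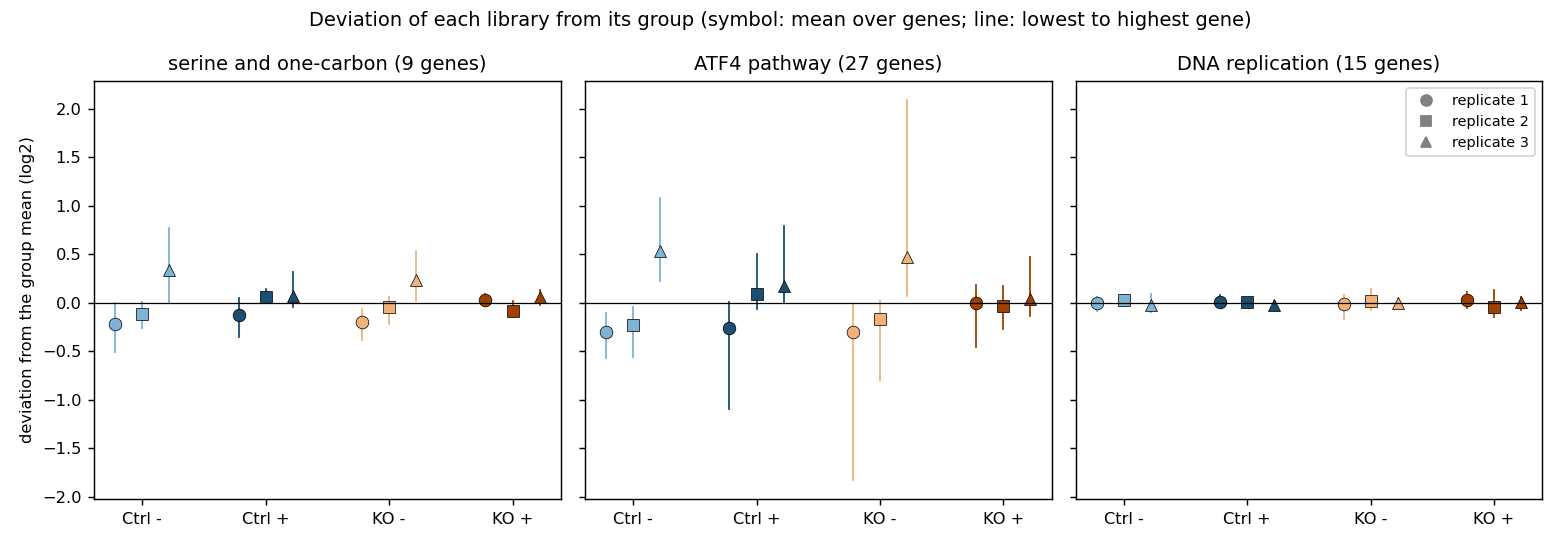
Deviation of each of the 12 libraries from the mean of its group on the log2 scale (vertical axis), over 9 serine and one-carbon genes, 27 ATF4 pathway genes and 15 DNA replication genes. Symbols are means over genes and lines run from the lowest to the highest gene. The triangle of replicate 3 is the highest of its group in -NaCl in the first and second panels, at 0.34 and 0.24 for the serine and one-carbon genes, while the third panel stays near 0.

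The genes whose profile over the 12 libraries was most like that of the 9 genes, after centring each genotype on its mean, were Slc1a5 (r = 0.990), Adcy8 (r = 0.988), Pycr1 (r = 0.986), Eif4ebp1 (r = 0.986) and Atf5 (r = 0.983), among 11151 genes compared. These libraries share the medium contrast and the pattern of the replicates, so the values are a description. Slc1a5, a glutamine and neutral amino acid carrier of the same family as Slc1a4, fell by 1.39 on the log2 scale in control cells and by 0.75 in NFAT5KO cells (adjusted p = 1.14e-04 and 0.00441 by limma). Pycr1, the last enzyme of proline synthesis, fell by 0.87 and by 0.53. Eif4ebp1, a repressor of cap-dependent translation, fell by 0.84 and by 0.53, and Adcy8, an adenylate cyclase, by 0.62 and by 0.35. Within the 9 genes, the correlation of each with the mean of the other 8 was between 0.793 for Mthfd1 and 0.989 for Psat1, with 0.833 for Slc1a4.

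Genes that feed or use the same carbon units were counted next. Of all genes tested, 12.7% fell and 13.3% rose in control cells, and 7.37% fell and 7.29% rose in NFAT5KO cells. The counts of these lists were not tested against those shares. Of 4 genes of the glycine cleavage system, which splits glycine in mitochondria, 1 fell in each genotype, Gcsh, by 0.44 in control and by 0.37 in NFAT5KO cells. Among other folate enzymes, Tyms, the thymidylate synthase, fell by 0.46 in control cells. Mthfs, which returns 5-formyltetrahydrofolate to the active pool, fell by 0.40 in NFAT5KO cells, where the log2 fold change of Tyms was -0.13 (adjusted p = 0.192 by limma). The difference of Tyms, 0.33 (adjusted p = 0.0321), passed, but did not pass without 8 of the 12 libraries taken singly (adjusted p between 0.0549 and 0.0877) or without the mean-variance trend (adjusted p = 0.114). Mthfd2l, the paralog of Mthfd2, had log2 fold changes of 0.0083 in control and 0.00069 in NFAT5KO cells. Of 12 genes of folate and serine or glycine transport, 2 fell in control cells, Slc1a5 and Sfxn1, the mitochondrial serine carrier (by 0.36), and the same 2 fell in NFAT5KO cells. The folate carrier Slc19a1 and the folate receptor Folr1 rose in control cells, by 0.23 and 0.55.

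Of 6 de novo purine synthesis genes, 4 fell in control cells: Pfas by 0.51, Gart by 0.21, Adsl by 0.19 and Ppat by 0.14. In NFAT5KO cells 1 fell, Adsl, by 0.20. Beside these counts, 12.7% of all genes fell and 13.3% rose in control cells, and 7.37% and 7.29% in NFAT5KO cells. Of 6 methionine cycle and transsulfuration genes, Ahcy and Cbs fell in control cells, by 0.27 and 1.45, and Ahcyl1 and Mat2a rose, by 0.27 and 0.19. In NFAT5KO cells Ahcy and Cbs fell, by 0.27 and 1.48, and Mat2a rose by 0.18. Cbs had few reads, 136 and 45 in control -NaCl and +NaCl and 95 and 28 in NFAT5KO -NaCl and +NaCl. Its call in NFAT5KO cells (adjusted p = 0.0464 by limma) and that of Mat2a in control cells (adjusted p = 0.0498) were near the threshold. Of 8 genes that use serine, 1 changed in either genotype: Serinc3, a membrane protein of the serine incorporator family, rose by 0.30 in both. The median log2 fold changes in control cells were -0.34 for glycine cleavage, -0.16 for transport, -0.17 for methionine cycle, -0.17 for purine synthesis and 0.018 for serine use.

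The ATF4 pathway list moved in the same direction as the serine and one-carbon genes in control cells. Of its 29 genes 21 fell and 1 rose there, beside 12.7% and 13.3% of all genes, with a median of -0.73. Without the mean-variance trend of limma 3 of the 29 changed. Asns, the asparagine synthetase, fell by 1.48, Atf5, a related transcription factor, by 1.42, Trib3, a pseudokinase, by 2.40 and Atf4 itself by 0.48, whereas Nupr1, a stress-induced nuclear protein, rose by 1.61. The call of Atf4 was lost without any 1 of the +NaCl libraries (adjusted p between 0.0554 and 0.132 by limma) and with DESeq2 (adjusted p = 0.121). In NFAT5KO cells 5 of 29 fell and 0 rose, beside 7.37% and 7.29% of all genes, with a median of -0.15. The 5 were Pycr1 by 0.53, Eif4ebp1 by 0.53, Atf5 by 0.56, and the amino acid transporter subunits Slc7a5 by 0.56 and Slc3a2 by 0.29. The log2 fold change of Asns was -0.48 there (adjusted p = 0.0879), that of Trib3 -1.63 (adjusted p = 0.126) and that of Atf4 0.11 (adjusted p = 0.544). These values moved with single libraries. Without NFAT5KO -NaCl replicate 1, Asns (-0.698, adjusted p = 0.00782) and Trib3 (-2.30, adjusted p = 0.0361) passed, and without NFAT5KO -NaCl replicate 3 they were -0.229 and -0.587 and did not. Atf4 passed as a rise without NFAT5KO -NaCl replicate 3 (0.262, adjusted p = 0.0366). The count of 5 was 0 without the mean-variance trend and 3 in 1 model of all 12 libraries. Leaving out NFAT5KO -NaCl replicate 1 raised it to 10, and leaving out -NaCl replicate 2, +NaCl replicate 2 or +NaCl replicate 3 lowered it to 2, and leaving out +NaCl replicate 1 to 3. The differences between the genotypes were 1.005 for Asns (adjusted p = 0.185), 0.86 for Atf5 (adjusted p = 0.0876) and 0.59 for Atf4 (adjusted p = 0.223). By limma, 0 of 29 passed and 15 of 29 had an unadjusted p below 0.05, beside 1.80% and 13.0% of all genes. Without both -NaCl libraries numbered 3, 8 of 29 passed, and 203 genes over all genes. Those libraries were set apart after these genes had been seen to deviate there, so the 8 are a description and no support for a difference.

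Of 15 DNA replication genes, 13 fell in control cells with a median of -0.31 and 9 in NFAT5KO cells with a median of -0.20. Of all genes tested, 12.7% fell in control and 7.37% in NFAT5KO cells. Tk1, the thymidine kinase of dividing cells, fell by 0.70 and by 0.60. Mcm2 and Mcm6, subunits of the replicative helicase, each fell by 0.35 in control cells, and the licensing factor Cdt1 by 0.31 in NFAT5KO cells. The lower DNA replication genes thus accompanied the lower serine and one-carbon genes in +NaCl in both genotypes, without the variation of the latter among the -NaCl libraries, and their part in the result was not tested. Without the mean-variance trend 12 changed in control and 0 in NFAT5KO cells. In NFAT5KO cells the count fell to 3 without -NaCl replicate 2 or -NaCl replicate 3 and to 4 without +NaCl replicate 3.

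**Figure D4:**
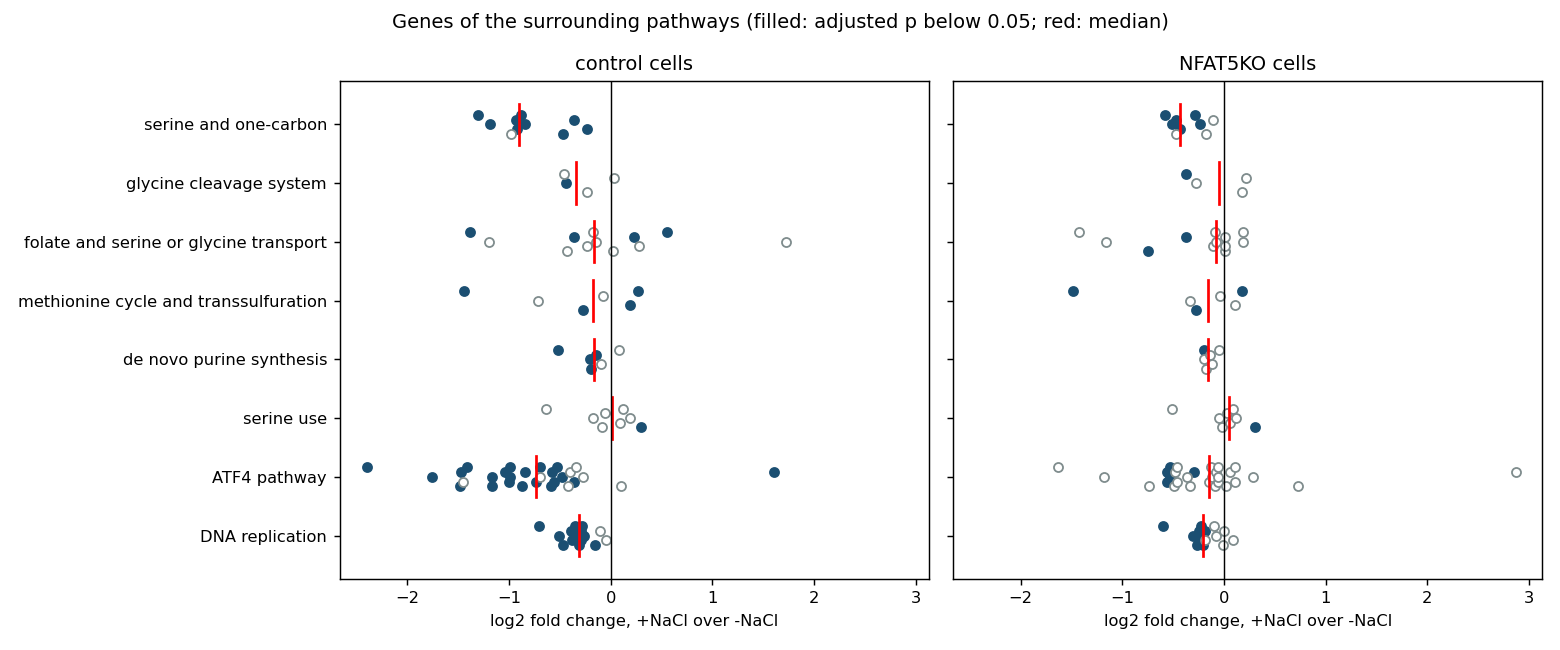
Log2 fold change of +NaCl over -NaCl (horizontal axis) for each gene of the serine and one-carbon set and of 7 lists around it, in control cells on the left and NFAT5KO cells on the right. Filled symbols have an adjusted p below 0.05 and red bars are medians, which for the serine and one-carbon set are -0.90 and -0.44. In control cells the ATF4 pathway list has a median of -0.73 and the serine use list one of 0.018.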

How the data were processed

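Poly-A RNA was sequenced as paired ends in 12 libraries, 3 in each of the 4 groups given by the sample labels. The deposited values are a signal, a normalized read count per gene that the authors made by dividing counts by 1 factor per library, separately for each genotype. Aligner, counting tool and strandedness are not given in the sources used here. The submitters' notes name mm10, a mouse build, whereas identifiers are rat Ensembl, so the build of the coordinates is unknown. Each table is named for one genotype but labels its columns with the other, and the column labels were followed. Columns with the authors' fold changes and p values, and 24 per-library columns matching no sample label, were not used.

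Normalized counts plus 1 were taken to log2 and compared in limma 3.58.1 (R 4.3.3) with a trend of the variance, keeping genes whose mean was at least 1, adjusted by Benjamini-Hochberg over all genes tested, at a threshold of 0.05. Fold changes are on this log2(value + 1) scale, which understates the change of low genes. The difference between genotypes was fitted over 12 libraries and the genes listed in both tables. Whole reads were recovered from the step of each library (100% of values whole within 0.1 read), and give depths of 14267946 to 22798804, CPM, and the tests with edgeR 4.0.16 (4392, 2340 and 302 genes called in control, NFAT5KO and the difference) and DESeq2 1.42.0. Other alternatives were pseudocounts of 0.5 and 5, a minimum mean of 10 or none, equal totals, TMM scaling, no trend, a replicate block, 1 model of 12 libraries and leaving out each library. The limma fit was tested on simulated counts, drawn for each gene independently with the same dispersion. They held no set of genes shifting together in a library, so such variation was not covered.

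The genes and lists were chosen with earlier results of these data known. All 10 genes are named. From each pathway list, the 3 genes with the smallest p in control and the 2 in NFAT5KO cells could be named, with Nfat5, Mthfd2l, Atf4, Asns, Trib3 and the 5 genes most alike. Slc19a1, Ppat, Nupr1, Slc7a5, Slc3a2 and Cbs in NFAT5KO cells were named after their values were seen, to complete short counts. A result that this rule would name, and the counts of other folate enzymes, are not reported here. Promoters are from RefSeq on GRCr8.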

Additional observations from a re-analysis of the deposited data

Results flagged for a closer look

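Tyms, the thymidylate synthase, stood out because its response differed between the genotypes in the test of the difference itself. Its normalized read count was 1479, 1517 and 1461 in control -NaCl and 1076, 1093 and 1074 in control +NaCl, and 1526, 1730 and 1683 against 1552, 1500 and 1464 in NFAT5KO cells. The NFAT5KO minus control log2 fold change was 0.331 (adjusted p = 0.0321 by limma). It did not pass without a mean-variance trend (adjusted p = 0.114), without both -NaCl libraries numbered 3 (0.36, adjusted p = 0.0629) or without 8 of the 12 libraries taken singly (adjusted p between 0.0549 and 0.0877).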

How the results depend on the processing

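For the serine and one-carbon genes, 163 of 169 recomputed values in control cells, 127 of 153 in NFAT5KO cells and 197 of 207 of the difference kept their direction and their side of the threshold. Without a mean-variance trend limma called 2763 genes in control cells, 14 in NFAT5KO cells, of which 0 of the serine and one-carbon genes, and 103 for the difference. In that setting Psph, Mthfd2 and Slc1a4 lost their call in control cells (adjusted p of 0.0699, 0.0736 and 0.152), and the count there was 6. DESeq2 called 468 genes for the difference and 1 of the 9. Leaving out 1 library gave 3 to 8 of the 9 genes in NFAT5KO cells, 943 to 2709 genes over all genes there, and 159 to 257 for the difference. The difference of Mthfd1 turned positive with equal library totals (0.00627), edgeR (0.00233), DESeq2 (0.00574) and without both -NaCl libraries numbered 3 (0.00792, chosen after seeing the data), and ran from -0.0678 to 0.0445 when 1 library was left out. Slc1a4 in NFAT5KO cells ran from -0.267 to 0.156. Mthfd2l turned negative in NFAT5KO cells with edgeR (-2.41e-04) and DESeq2 (-0.00393), and when 1 library was left out it ran from -0.0427 to 0.0658 there and from -0.0398 to 0.0412 in control cells. The cause of these changes was not tested.

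Replicate numbers were not treated as a pairing. Deviations from the group mean were correlated between -NaCl and +NaCl libraries of a genotype, over all genes with enough reads. For same-numbered libraries r was between -0.0849 and 0.0505, and for differently numbered libraries between -0.0758 and 0.0761. The serine and one-carbon genes of control cells deviated partly alike by number. In -NaCl and +NaCl their means were -0.22 and -0.13 for replicate 1, -0.12 and 0.056 for replicate 2, and 0.34 and 0.072 for replicate 3. In NFAT5KO cells these were -0.20 and 0.026, -0.038 and -0.084, and 0.24 and 0.058. With the replicate block, 9 of 10 genes fell in control cells, 6 of 9 in NFAT5KO cells and 0 of 9 differed, and over all genes the counts were 4514, 1992 and 247. In control cells the limma adjusted p of Mthfd2 was 9.48e-05 with the block and 0.00312 without it, and that of Shmt1 8.73e-04 and 3.15e-04. There 27 of 29 ATF4 pathway genes changed with the block and 22 without it. With the block Trib3 passed in NFAT5KO cells (adjusted p = 0.0372 by limma), 2 of 29 ATF4 pathway genes differed between the genotypes, and the difference of Tyms did not pass (adjusted p = 0.0705). Depth limits Aldh1l2, which had 46 and 21 reads in the 2 control groups, and also Cbs, which had 95 and 28 in the NFAT5KO groups.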
